A study of Homo sapiens with 6 samples.

Results

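MHC class I molecules carry short peptides from inside the cell to its surface, where T cells and natural killer cells read them. A heavy chain, such as HLA-B, HLA-C, HLA-E or HLA-F, folds with the small chain beta-2 microglobulin (B2M), while the proteasome cuts proteins into peptides and the transporter TAP, made of TAP1 and TAP2, moves the peptides into the endoplasmic reticulum. Cells exposed to interferon replace catalytic subunits of the standard proteasome by the inducible subunits PSMB8, PSMB9 and PSMB10. Epithelial cells, those of the breast included, carry class I molecules at all times, and their genes are classical targets of the interferon transcription factors.

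The 9 genes described here were given as a list of symbols: the heavy chains HLA-B, HLA-C, HLA-E and HLA-F, the light chain B2M, the transporter genes TAP1 and TAP2, and the inducible proteasome genes PSMB8 and PSMB9. All 9 were found among the 20802 gene amplicons of the panel. The list was chosen with earlier results of these data known, so contrasts of its members with all genes are descriptions only. The genes were measured in MCF10A, an established line of benign human mammary epithelial cells, by Ion AmpliSeq Transcriptome sequencing, in which 1 short amplicon per gene is read from cDNA. The 6 libraries were labelled as 2 replicates each of the untransfected line (WT), of cells stably transfected with the vector that carries only the fluorescent protein (eGFP), and of cells stably overexpressing KCNJ3, the gene of the potassium channel subunit GIRK1 (GIRK1). The vector of the GIRK1 cells holds eGFP behind an internal ribosome entry site, so the GIRK1 and eGFP cells share the fluorescent protein and selection with the drug G418 followed by sorting for fluorescence, which the WT cells lack. The design text of the series speaks of 2 lines with and 2 without the transgene, the methods speak of 2 replicates, and neither says whether a line is a single clone. Whether replicates are separate cultures is not stated, so p-values measure the spread between these libraries, which may be technical.

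The library labelled WT replicate 1 held 2506120 reads and the other 5 held 5126930 to 16040556 reads. KCNJ3 had 2408 and 3677 reads in the GIRK1 libraries, 0 in both eGFP libraries and in WT replicate 2, and 48 reads in WT replicate 1. WT replicate 1 went against its label in other genes too: the basal keratins KRT5, KRT14 and KRT17 had 2, 0 and 0 reads there, and 3035 reads or more each in the other 5 libraries, whereas the luminal genes TFF1 and KRT19 had 12796 and 2315 reads there and 0 in the other 5. It is therefore shown apart, and GIRK1 was compared with eGFP and with WT replicate 2. The 8 basal epithelial markers summed to between 8384 and 15782 RPM (the count scaled to the library total) in these 5 libraries, although TP63 was at 0 in all of them. Within that list KRT17 was called higher in GIRK1 than in eGFP (log2 fold change 2.17, edgeR adjusted p = 0.00764) and LAMB3 lower (-2.81, adjusted p = 0.00301), and of the 7 fibroblast markers DCN was called higher (3.37, adjusted p = 0.0328). The 11 leukocyte markers summed to 9.79 to 32.4 RPM in these 5 libraries, lower in GIRK1 (17.4 and 13.2 RPM) than in eGFP (32.4 and 22.8 RPM) and most of it CD14. PTPRC, CD3E, CD4, CD8A and MS4A1 were at 0 and 3 of the 11 had enough reads to be tested, of which edgeR called 0 in GIRK1 against eGFP, with 2 at an unadjusted p below 0.05 (CD14 and LCP1, both lower in GIRK1), and DESeq2 called 1, LCP1, lower. The 7 fibroblast markers summed to 31.9 and 33.5 RPM in GIRK1 and 8.60 to 13.7 RPM in the 3 controls. The part of these cell type markers in the members' differences was not tested. The file names place both GIRK1 libraries under a tag that the other 4 do not carry. Its meaning is not stated, and should it mark separate sequencing, then sequencing and overexpression cannot be told apart.

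Of the 9 genes, 8 lie in the major histocompatibility complex on chromosome 6 and B2M lies on chromosome 15. On the GENCODE annotation of GRCh38, matched by symbol, the transcript of HLA-F spans 29723279 to 29727296 and that of HLA-E 30489467 to 30494205, both on the plus strand of chromosome 6. HLA-C (31268749 to 31272086) and HLA-B (31353872 to 31357187) are on its minus strand. Farther along lie TAP2 (32825410 to 32838770), PSMB8 (32840717 to 32844047) and TAP1 (32845209 to 32853978) on the minus strand, and PSMB9 (32854161 to 32859585) on the plus strand, so the transporter and the inducible proteasome genes are direct neighbours. B2M spans 44711517 to 44718145 on the plus strand of chromosome 15.

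Stretches of their promoters are shown because the members were higher together in both GIRK1 libraries. RefSeq promoters (250 bases before to 50 after a start site, GRCh38.p14) were given for 8 of the 9 genes, 10 promoters in all, and HLA-E had no entry. The interferon-stimulated response element was searched on both strands as 2 copies of GAAA with any 2 bases between them. It was present in promoters of HLA-F, B2M, TAP1, TAP2 and PSMB8, that is 5 of the 10 promoters, and in 3.57% of all 35116 promoters. A form with 1 base less, GAANNGAAA, was added after the HLA-B and HLA-C promoters had been read. It was found in 4 of the 10 promoters (HLA-B, HLA-C, TAP2 and PSMB8) and in 7.66% of all promoters. In TAP2 and PSMB8 it overlaps the longer form. The stretches below run 5′ to 3′ on the strand of each gene, with the bases of either form in capitals. A match is a description of letters and not a shown binding site.

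HLA-B (chr6:31357296-31357364, minus strand): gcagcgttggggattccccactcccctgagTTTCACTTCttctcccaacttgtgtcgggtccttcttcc
HLA-C (chr6:31272205-31272273, minus strand): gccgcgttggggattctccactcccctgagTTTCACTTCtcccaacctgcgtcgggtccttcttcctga
HLA-F (chr6:29723248-29723317, plus strand): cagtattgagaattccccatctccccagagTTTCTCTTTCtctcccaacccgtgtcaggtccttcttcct
B2M (chr15:44711343-44711412, plus strand): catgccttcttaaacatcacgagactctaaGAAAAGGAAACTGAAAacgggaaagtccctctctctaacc
TAP2 (chr6:32838758-32838827, minus strand): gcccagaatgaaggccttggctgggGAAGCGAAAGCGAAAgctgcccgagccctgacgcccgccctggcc
PSMB8 (chr6:32844023-32844081, minus strand): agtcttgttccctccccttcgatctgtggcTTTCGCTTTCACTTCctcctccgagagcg

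TAP1 and PSMB9 point away from each other, and their RefSeq start sites (32853704 and 32854192) are 488 bases apart. A pair of overlapping matches of the longer form lies between them, 119 bases from the TAP1 start and 354 bases from the PSMB9 start, outside the 300 bases of the PSMB9 promoter. The TAP1 side of this shared stretch, 275 bases on the minus strand, was as follows.

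TAP1 (chr6:32853680-32853954, minus strand): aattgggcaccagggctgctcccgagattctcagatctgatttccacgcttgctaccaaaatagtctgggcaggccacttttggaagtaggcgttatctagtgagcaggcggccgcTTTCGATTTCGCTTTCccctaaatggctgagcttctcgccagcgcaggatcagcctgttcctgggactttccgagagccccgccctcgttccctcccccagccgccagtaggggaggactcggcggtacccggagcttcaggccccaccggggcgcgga

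Another 2 motifs were searched in the same way. The gamma-activated sequence, searched as TTCNNNGAA, was found in 2 of them (1 of the TAP1 promoters and 1 of the PSMB8 promoters) and in 7.66% of all promoters. CCAAT was found in 6 of the 10 and in 34.6% of all promoters.

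The heavy chains are near copies of each other, and how reads shared between copies were assigned is not given in the sources used here. For each heavy chain amplicon, windows of the amplicon's length within 60 bases of its stated position were compared with the reference transcripts of the other class I chains, because the exact offset between the panel's transcripts and the annotation is not known. For HLA-B the nearest stretch of HLA-C differed at 2 to 8 of 105 bases over these windows, with a median of 5. For HLA-E the nearest stretch of HLA-C differed at 2 to 16 of 106 bases. For HLA-C the nearest stretch of HLA-B differed at 8 to 39 of 102 bases, and for HLA-F the nearest stretch of HLA-C at 18 to 75 of 122 bases. Counts of HLA-B and HLA-E are therefore less certain as counts of a single gene than those of the other members. The alleles that MCF10A carries were not determined here.

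GIRK1 was first compared with eGFP, the control that shares its vector, selection and sorting. Of the 9 genes 5 rose in GIRK1, among them 2 heavy chains, the light chain, 1 transporter gene and 1 inducible proteasome gene. HLA-B was 3.78-fold, HLA-C 3.01-fold, B2M 2.78-fold, TAP1 2.67-fold and PSMB9 5.02-fold higher, and these 5 passed the test (edgeR's quasi-likelihood test over 5 libraries, adjusted p below 0.05). PSMB8 at 2.23-fold and HLA-E at 2.01-fold missed the threshold narrowly, and TAP2 at 1.47-fold and HLA-F did not pass. In RNA from whole cultures, more expressing cells and more RNA per cell cannot be told apart. Both GIRK1 libraries lay above the eGFP libraries and WT replicate 2 for 8 members, and for HLA-F, which is treated apart below. Over the 11779 genes tested, 0.756% were called higher and 1.6% in either direction, and 21.6% had both GIRK1 libraries above all 3 controls.

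**Figure D1:**
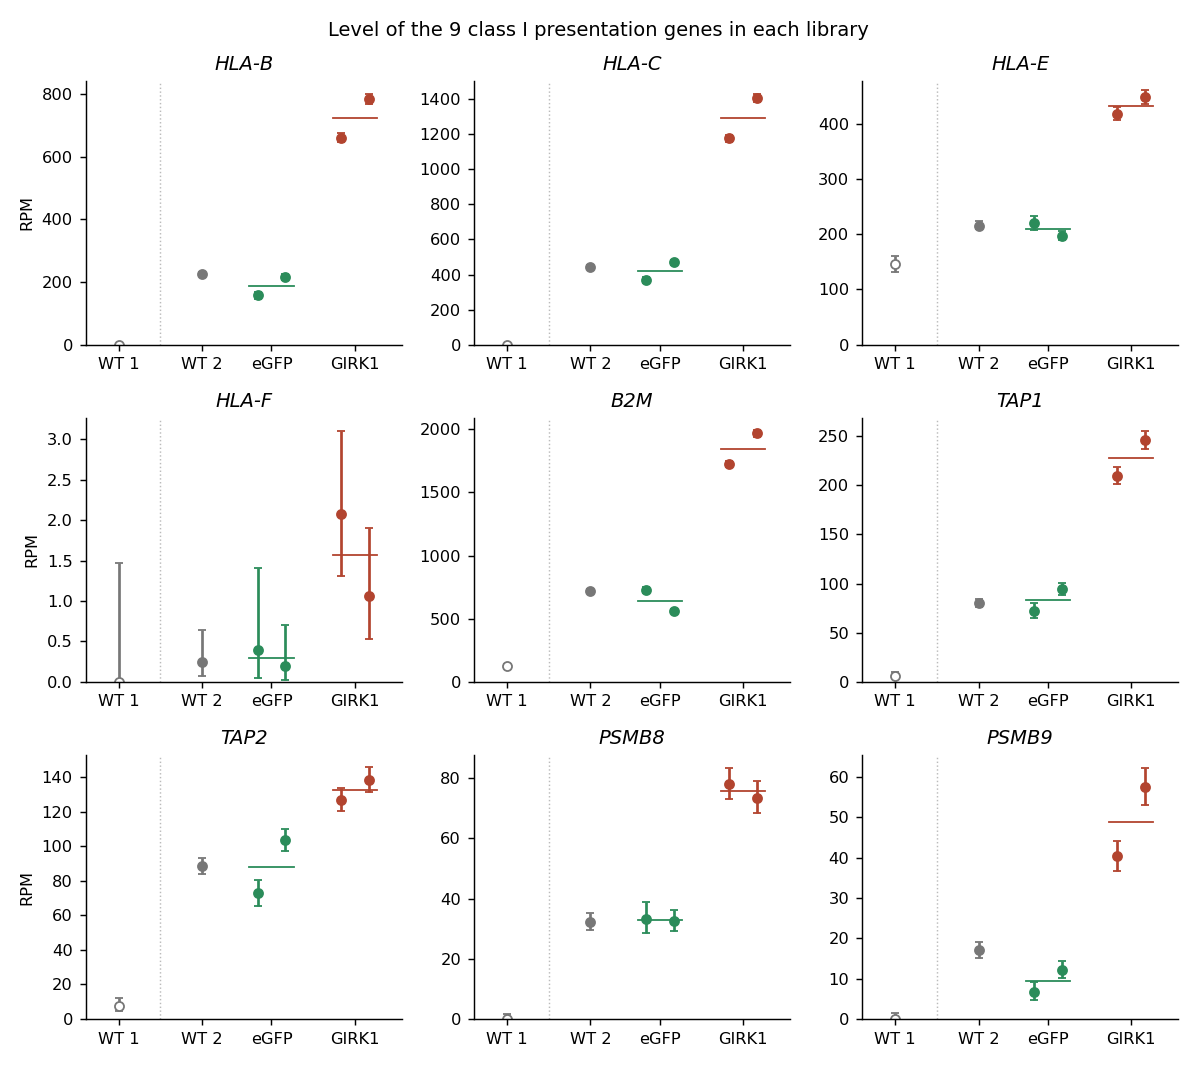
RPM of the 9 genes in each library, 1 panel per gene with its own linear axis starting at 0. Points are libraries, bars are exact 95% intervals of the count, short lines are the means of eGFP and GIRK1 (n = 2), and the open point left of the dotted line is the library labelled WT replicate 1. Both GIRK1 points lie above WT replicate 2 and both eGFP points in every panel, with the narrowest gap in TAP2 (127 against 104 RPM).

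Among the heavy chains, HLA-B presents peptides to cytotoxic T cells. It had 660 and 784 RPM in GIRK1, 157 and 216 RPM in eGFP and 225 RPM in WT replicate 2. The lower GIRK1 library was 2.93 times the highest control. The means were 722 ± 87.6 RPM in GIRK1 and 187 ± 41.4 RPM in eGFP (SD, n = 2), a log2 fold change of 1.92 ± 0.24 (SE; edgeR adjusted p = 0.0171).

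HLA-C, which presents peptides to T cells and is also read by inhibitory receptors of natural killer cells, had 1177 and 1409 RPM in GIRK1, 369 and 470 RPM in eGFP and 443 RPM in WT replicate 2. The GIRK1 and control values did not overlap, and the controls were within 1.27-fold of each other. The log2 fold change over eGFP was 1.59 ± 0.23 (SE; edgeR adjusted p = 0.0271).

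HLA-E, a non-classical chain that shows signal peptides of other class I chains to the receptor NKG2A, was the steadiest of the 4 within groups. It had 418 and 448 RPM in GIRK1, 220 and 197 RPM in eGFP and 216 RPM in WT replicate 2. The log2 fold change of 1.01 ± 0.22 (SE, 95% interval 0.49 to 1.53) did not pass (edgeR adjusted p = 0.0835).

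HLA-F, a non-classical chain that can be found at the surface without peptide, was near the limit of detection. It had 23 and 11 reads in GIRK1, 2 and 2 in eGFP and 4 in WT replicate 2, or 2.07, 1.06, 0.39, 0.195 and 0.249 RPM. All of these reads were on the forward strand, whereas HLA-B, HLA-C and HLA-E had between 44.6% and 57.2% forward reads in the 5 libraries. The ratio of the summed GIRK1 to the summed eGFP counts, each scaled to total reads, was 6.09 (exact 95% interval 2.17 to 23.6, counting error only). HLA-F passed the filter on low counts only through the GIRK1 group, so it had to differ, and its log2 fold change of 2.47 ± 0.89 (SE; edgeR adjusted p = 0.208) supports nothing here. The counts and medians over members below are given without it unless it is named.

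The light chain B2M pairs with the class I heavy chains that carry peptides to the surface. It had 1726 and 1967 RPM in GIRK1, 724 and 562 RPM in eGFP and 718 RPM in WT replicate 2. The lower GIRK1 library was 2.38 times the highest control. The log2 fold change over eGFP was 1.47 ± 0.25 (SE; edgeR adjusted p = 0.0451).

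Of the transporter genes, TAP1 had 210 and 246 RPM in GIRK1, 72.0 and 94.4 RPM in eGFP and 79.9 RPM in WT replicate 2. Its log2 fold change was 1.42 ± 0.23 (SE; edgeR adjusted p = 0.0380). Its partner TAP2 had 127 and 138.2 RPM in GIRK1, 72.8 and 104 RPM in eGFP and 88.7 RPM in WT replicate 2. The TAP2 difference was the smallest of the 9, with a log2 fold change of 0.56 ± 0.23 (SE, 95% interval 0.02 to 1.09; edgeR adjusted p = 0.253).

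Of the inducible proteasome genes, PSMB8 encodes the subunit with chymotrypsin-like activity. It had 78.1 and 73.6 RPM in GIRK1, 33.4 and 32.6 RPM in eGFP and 32.2 RPM in WT replicate 2. The 3 controls were within 1.04-fold of each other, the narrowest range of the 9 genes, yet the log2 fold change of 1.16 ± 0.21 (SE) had an edgeR adjusted p of 0.0543. PSMB9 replaces the subunit PSMB6. It had 40.3 and 57.5 RPM in GIRK1, 6.63 and 12.1 RPM in eGFP and 17.0 RPM in WT replicate 2. The 3 controls of PSMB9 spread over 2.57-fold, the widest range of the 9 genes, and its log2 fold change over eGFP was 2.33 ± 0.34 (SE; edgeR adjusted p = 0.0302).

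**Figure D2:**
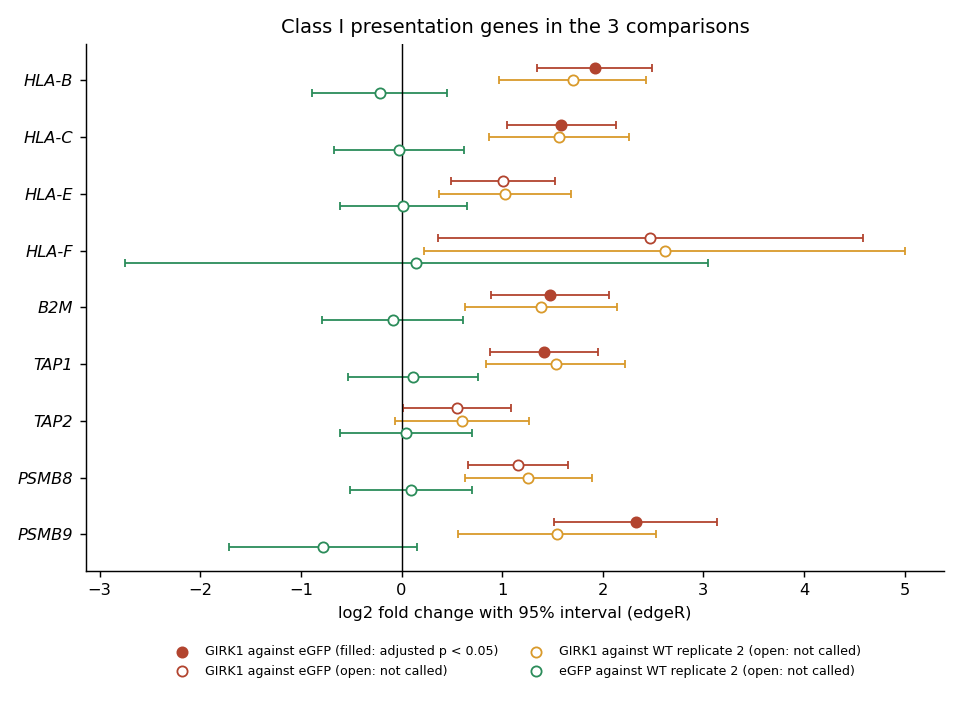
Log2 fold changes of the 9 genes with their 95% intervals from edgeR's fit of 5 libraries. Red is GIRK1 against eGFP, yellow GIRK1 against WT replicate 2 and green eGFP against WT replicate 2, with filled points for an adjusted p below 0.05. Without HLA-F, the red and yellow points lie between 0.56 and 2.33, and the green points between -0.78 and 0.11. HLA-F, which passed the filter on low counts only through the GIRK1 group, is at 2.47 (red), 2.62 (yellow) and 0.15 (green).

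GIRK1 was also set against WT replicate 2, a single library that the fit assumes to vary like the others. The log2 fold changes were 1.70 for HLA-B, 1.57 for HLA-C, 1.03 for HLA-E, 1.38 for B2M, 1.53 for TAP1, 0.60 for TAP2, 1.26 for PSMB8 and 1.55 for PSMB9, with standard errors of 0.27 to 0.42. PSMB9 was 2.92-fold higher than in WT replicate 2 and 5.02-fold higher than in eGFP. None of the 9 passed edgeR's adjusted threshold, where 0.229% of all genes were called (0.195% higher). Of the 8 members other than HLA-F, 7, all but TAP2, had an unadjusted p below 0.05, as had 7.38% of all genes. DESeq2 called 4 of the 8 (1.15% of all genes that it tested). This comparison shares the GIRK1 libraries with the first, so the values stand side by side and are not independent of it.

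The controls differed little from each other in these genes. Between eGFP and WT replicate 2 the log2 differences (eGFP minus WT) of 8 of the 9 ran from -0.22 for HLA-B to 0.15 for HLA-F, and that of PSMB9 was -0.78 with a 95% interval of -1.72 to 0.15. No member was called by edgeR or DESeq2 and none had an unadjusted edgeR p below 0.05. Across all genes edgeR called 0 of 11779, 418 had an unadjusted p below 0.05, and DESeq2 called 3. The median log2 fold change of the 8 members other than HLA-F was 1.45 for GIRK1 against eGFP and 1.46 against WT replicate 2, beside medians of 0.02 and 0.01 over all genes tested. For eGFP against WT replicate 2 it was -0.00281, beside 0.01 over all genes. Single control libraries were less alike outside these members. Over 9288 genes, log2 ratios between the eGFP replicates had an SD of 0.646. Against WT replicate 2 the SD was 0.725 for eGFP replicate 1 and 0.327 for eGFP replicate 2. So eGFP replicate 1 stood apart from the other controls, and its cause was not tested. With that spread, 0 calls do not show that the controls were alike over all genes.

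How firmly these calls stood depended on single libraries. Without GIRK1 replicate 2 only HLA-B and PSMB9 passed in GIRK1 against eGFP, when 1.35% of all genes were called, and without eGFP replicate 2 the 8 members other than HLA-F did, when 25.5% of all genes (2997) were called. Against WT replicate 2, 7 members passed without eGFP replicate 1 (4.93% of all genes called) and 7 without eGFP replicate 2 (3.82%). In each of these fits the 8 members were higher in GIRK1.

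By the study's own rule, applied here to RPM (means at least 2-fold apart, and an SD of less than 0.7 of the mean within either group), 7 of the 8 members other than HLA-F were higher in GIRK1 than in eGFP, all but TAP2. Of all 20802 genes 3.01% were higher by this rule. That total includes genes without reads, which cannot pass: the libraries of the 2 groups held reads for between 12734 and 13773 genes each. The folds of mean RPM ran from 2.07 for HLA-E to 5.22 for PSMB9 among the 7.

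Ratios within a library set the members against their partners, and primer efficiencies differ between amplicons, so that only changes of a ratio between libraries can be read. PSMB8 to PSMB5, its constitutive counterpart, had log2 ratios of -1.18 and -1.02 in GIRK1, -2.64 and -2.45 in eGFP and -2.39 in WT replicate 2, a shift of 1.45 over eGFP with a pooled SD of 0.12. PSMB9 to PSMB6 shifted by 1.93 (pooled SD 0.22), from -4.67 and -4.42 in eGFP to -2.80 and -2.43 in GIRK1. For the third such pair, PSMB10 to PSMB7, the shift was 0.55 (pooled SD 0.26), and the lower GIRK1 value of -2.57 lay next to the -2.62 of WT replicate 2. The first and second shifts were larger than the spread between replicates, and were 1.29 and 1.40 when taken over WT replicate 2. The third was also larger than its pooled SD over eGFP, but was 0.24 over WT replicate 2, less than that SD. With 2 libraries a group, an exact test of single ratios cannot go below p = 0.333, and none was run.

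The heavy chains kept closer to B2M. HLA-C to B2M shifted by 0.10, less than its pooled SD of 0.36, and HLA-B to B2M by 0.43, about its pooled SD of 0.41, with the 2 eGFP libraries apart from each other (-2.20 and -1.38). HLA-E to B2M was lower in both GIRK1 libraries (-2.05 and -2.13) than in eGFP (-1.72 and -1.51) and WT replicate 2 (-1.73), a shift of -0.48 with a pooled SD of 0.11. TAP1 to TAP2, a ratio added after the values had been seen, was 0.72 and 0.83 in GIRK1 and between -0.15 and -0.02 in the 3 controls.

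**Figure D3:**
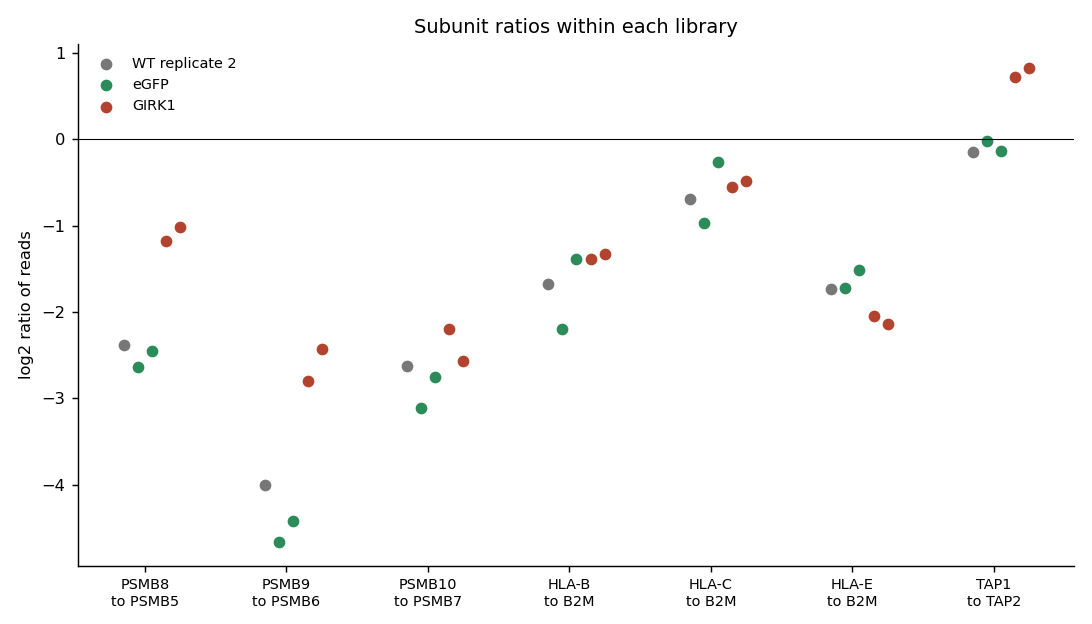
Log2 ratios of reads of 2 genes within each library, 1 column per pair. Points are libraries, coloured by group, without the library labelled WT replicate 1. The GIRK1 points stand apart for PSMB8 to PSMB5, PSMB9 to PSMB6, HLA-E to B2M and TAP1 to TAP2, and lie among or next to the controls for the other 3 pairs.

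The rest of the pathway was read from lists of related genes. An unadjusted p below 0.05 was common over all genes in GIRK1 against eGFP. TAP2, at an unadjusted edgeR p of 0.0445, ranked 2069 by p among the 11779 genes tested, so about that many genes had a p at least as small. Unadjusted counts of the lists below, and of the leukocyte markers above, are to be read beside that rank. The number of all genes called by DESeq2 is given with the processing alternatives at the end. Among 12 other class I and class I-like heavy chains, 6 were tested and edgeR and DESeq2 called 0, with 1 at an unadjusted edgeR p below 0.05 and a median log2 fold change of -0.68. These 6 hold the ligands MICA, MICB, ULBP2 and ULBP3 of the activating receptor NKG2D, with log2 fold changes of -1.02, -0.78, -1.41 and -0.55 that did not pass. Over WT replicate 2 the same genes were at 0.34, 0.28, 0.08 and -0.26 and the list's median was 0.05, so their sign depended on the control.

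Of the 12 genes of peptide loading and trimming, 11 were tested and edgeR called 0 (5 at an unadjusted p below 0.05, and 4 called by DESeq2), with a median of 0.18. TAPBP, or tapasin, which holds empty class I molecules at the transporter, had 40 and 29 reads in GIRK1, 10 and 21 in eGFP and 31 in WT replicate 2 (log2 fold change 0.64 ± 0.47, SE, 95% interval -0.48 to 1.76). Of the other 4 inducible proteasome genes (PSMB10, PSME1, PSME2 and the assembly factor POMP) 0 were called by edgeR, 2, both higher, had an unadjusted p below 0.05 and DESeq2 called 1. PSMB10, the third inducible catalytic subunit, had 50.4 and 47.8 RPM in GIRK1, 35.5 and 40.5 RPM in eGFP and 40.3 RPM in WT replicate 2, a log2 fold change of 0.33 ± 0.21 (SE). Of 22 constitutive proteasome genes edgeR called 0, 2, both lower, had an unadjusted p below 0.05 and DESeq2 called 1, lower, with a median of -0.15. PSMB5, PSMB6 and PSMB7, the subunits that the inducible ones replace, had log2 fold changes of -0.29 ± 0.23, 0.43 ± 0.25 and -0.22 ± 0.23 (SE).

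Of 15 genes that control class I transcription, 14 were tested and 2 rose, IRF9 and STAT2, which act in the interferon-activated complex ISGF3. The list's median was 0.43. IRF9 had 110 and 151 RPM in GIRK1 and between 13.0 and 15.6 RPM in the 3 controls, a log2 fold change of 3.16 ± 0.28 (SE; edgeR adjusted p = 0.00471). STAT2 had 117 and 142.8 RPM in GIRK1 and between 28.2 and 30.7 RPM in the controls, with a log2 fold change of 2.06 ± 0.22 (SE; edgeR adjusted p = 0.0103). IRF9 also passed against WT replicate 2.

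NLRC5, the transactivator of class I genes, had 14.8 and 18.6 RPM in GIRK1, 5.27 and 4.01 RPM in eGFP and 5.36 RPM in WT replicate 2. Its log2 fold change of 1.83 ± 0.34 (SE) had an edgeR adjusted p of 0.0566. IRF1, a factor that acts on the TAP1 and PSMB9 promoter, had 27.7 and 23.4 RPM in GIRK1, 16.2 and 10.2 RPM in eGFP and 12.7 RPM in WT replicate 2 (log2 fold change 0.92 ± 0.32, SE; edgeR adjusted p = 0.196). The general factors of the class I promoter were at 0.82 for RFXAP, 0.61 for RFXANK, 0.45 for NFYB, 0.40 for NFYC, 0.25 for NFYA, 0.24 for CREB1 and -0.35 for RFX5 and did not pass.

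Class II presentation, which belongs to professional antigen-presenting cells, was at or near 0 for most of its genes. Of 14 genes 13 were on the panel and 4 had enough reads to be tested, of which edgeR and DESeq2 called 0, with 2 at an unadjusted edgeR p below 0.05. IFI30, a lysosomal enzyme that reduces disulfide bonds of antigens, had 54.4 to 76.5 RPM in the 5 libraries. HLA-DPA1 had 7 and 17 reads in GIRK1, 0 in eGFP and 7 in WT replicate 2. It was 1 of the 2 genes at an unadjusted p below 0.05. Like HLA-F, it passed the filter on low counts only through the GIRK1 group, so that p supports nothing here. The other of the 2 genes was lower in GIRK1. The class II transactivator CIITA had 1 read in WT replicate 2 and 0 in the other 4 libraries, and HLA-DRA, HLA-DPB1 and CD74 had 0 in all 5.

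**Figure D4:**
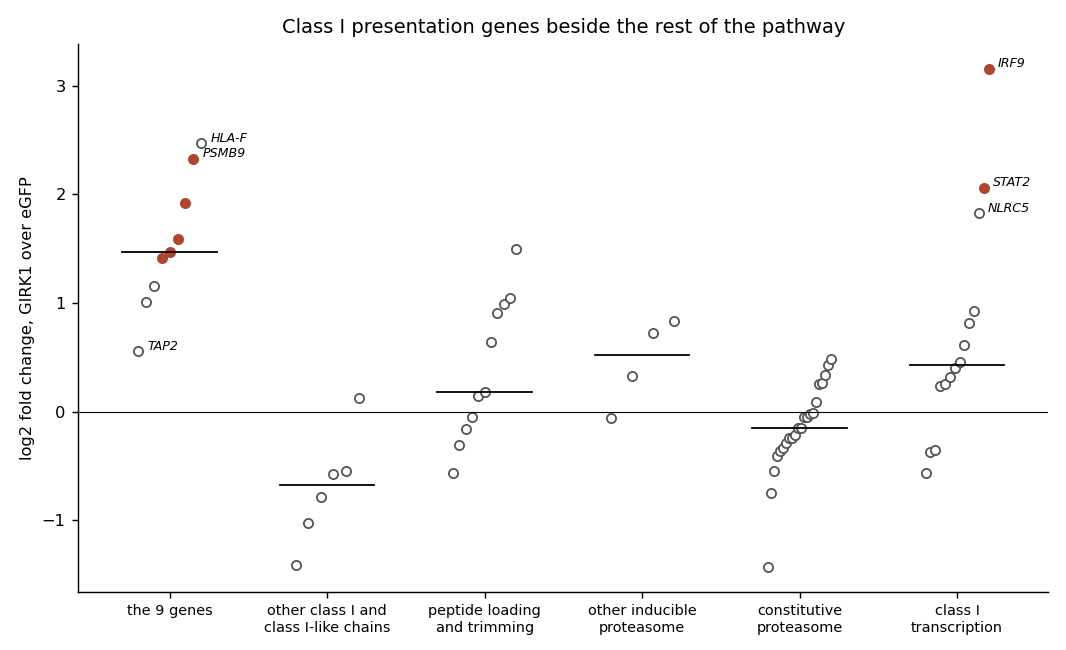
Log2 fold change of GIRK1 over eGFP for each tested gene of 6 lists. Filled points passed an adjusted p of 0.05, open points did not, and horizontal lines are the medians of the lists. The 9 genes, HLA-F included, centre on 1.47, the constitutive proteasome genes on -0.15, and IRF9 is the highest point.

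The genes on none of these lists whose pattern over the 5 libraries was most like the average of the 9 members, HLA-F included, by the root mean square difference of log2 CPM (TMM-scaled counts) centred on each gene's mean, were ZNFX1 (0.06), ACPL2 (0.09), PAQR6 (0.12), ZCCHC2 (0.12) and CHMP5 (0.12), out of 9209 genes compared. Genes that are not reported here were left out of this search. The members themselves lay between 0.11 and 0.47 from their average. ZNFX1 had 46.8 and 47.1 RPM in GIRK1, 17.2 and 19.3 RPM in eGFP and 21.0 RPM in WT replicate 2.

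In the library labelled WT replicate 1 HLA-B, PSMB8 and PSMB9 had 0 reads, which allows up to 3 reads, and HLA-C had 1 read. HLA-F had 0 reads as well, which at this depth does not tell it from the controls. TAP1 had 5.99 RPM and TAP2 7.58 RPM, 12.0-fold and 9.60-fold below the lowest of the 3 controls. B2M had 129 RPM, 4.36-fold below them, and HLA-E had 146 RPM, 1.36-fold below them. Taking this library into the WT group left 0 of the 9 members and 0 of all genes past edgeR's threshold in GIRK1 against eGFP, with 2 members and 606 genes at an unadjusted p below 0.05, although no eGFP or GIRK1 value had changed.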

How the data were processed

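Total RNA of 6 MCF10A libraries was read with the Ion AmpliSeq Transcriptome panel. Using the Ion Torrent workflow for this panel, the authors mapped the reads to its transcript reference. They deposited whole-number read counts and RPM for 20812 amplicons (10 of them spike-in controls with 0 reads). RPM is the count scaled to the library total. Groups were taken from the labels. Counts of 5 libraries were fitted with edgeR 4.0.16 (R 4.3.3; TMM, filterByExpr, glmQLFit and glmQLFTest on group means, Benjamini-Hochberg adjustment, threshold 0.05), with standard errors derived from the F value. The filter kept 11779 genes, of which 294 passed through the GIRK1 libraries only. The test was also run on counts simulated from the fit's own average levels and dispersions. Such counts cannot show how it behaves on libraries whose replication is unknown. DESeq2 1.42.0 was an alternative. Intervals of single counts are exact (Clopper-Pearson, 95%), the floor is 3 reads, and neither covers more than counting error, because amplified reads without molecular identifiers are not separate molecules.

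The members and the gene lists were chosen with earlier results of these data known. Named are all 9 members, KCNJ3, up to 3 called genes with the largest change per list, PSMB5, PSMB6, PSMB7, PSMB10, TAPBP, NLRC5 and IRF1, and the 5 genes most like the members' average pattern (mean of at least 50 reads, log2 of TMM CPM plus 1). MICA, MICB, ULBP2, ULBP3, TAPBPL, LAP3, ERAP1, CANX, THOP1, the RFX, NFY and CREB1 genes, IFI30, HLA-DRA, HLA-DPA1, HLA-DPB1, CD74, CIITA and the cell type markers with values were named after their values had been seen. Some genes of the lists are not reported here.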

Additional observations from a re-analysis of the deposited data

Results flagged for a closer look

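Over 34 genes (the 9 members, the other class I and class I-like chains and the class II genes), 3 had a level in the library labelled WT replicate 1, which entered no comparison, whose exact 95% interval lay above those of the 3 controls. HLA-DRB1, a class II chain, had 70 reads there, or 27.9 RPM (95% interval 21.8 to 35.3), and 0 reads in the eGFP libraries and WT replicate 2. ULBP1, a ligand of the receptor NKG2D, had 17 reads, or 6.78 RPM (3.95 to 10.9), and 0 in the controls. ULBP2, another such ligand, had 43 reads, or 17.2 RPM (12.4 to 23.1), beside 3.43 to 9.58 RPM in the controls. None of the 9 members was among the 3 genes. With 2 libraries a group, no library was tested against its own group.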

How the results depend on the processing

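The 5 members called in GIRK1 against eGFP became 0 with all 6 libraries (WT replicate 1 within the WT group) and 0 at an adjusted p below 0.01, and ranged from 2 to 8 when a GIRK1 or eGFP library was left out. The other alternatives (DESeq2 size factors or test, other filters, covering reads, the replicate block, only the 4 libraries, the controls as 1 group) gave 4 to 7, all higher. Against WT replicate 2, where 0 were called, no filter on low counts and the DESeq2 test each gave 4, and leaving out a library gave 0 to 7. Over all genes, the 188 called in GIRK1 against eGFP were 0 with all 6 libraries, 42 at an adjusted p below 0.01, 107 with at least 10 reads in every library, 660 by DESeq2, 865 with no filter and 158 to 2997 with a library left out. The cause of these shifts was not tested. The no-filter count of members against WT replicate 2 has no total over all genes beside it. Nor have the counts from DESeq2 size factors, covering reads, only the 4 libraries or the controls as 1 group. Without that background these counts are not read as a result about the members.

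Same-numbered libraries were not shown to be paired: the replicate differences of eGFP and GIRK1 correlated at 0.191 over 9288 genes, and there were only 2 pairs. With the replicate block 6 members were called in GIRK1 against eGFP (PSMB8 added) and 549 genes in all, 0 members against WT replicate 2 and 0 between eGFP and WT replicate 2.

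No direction of GIRK1 against either control changed for any member. Between eGFP and WT replicate 2, where nothing was called, the sign turned with all 6 libraries (HLA-B 0.77, HLA-C 0.96, B2M 0.68, PSMB9 0.077), with the replicate block (HLA-C 0.10, HLA-E -0.021, HLA-F -0.28), with covering reads (HLA-C 0.036), with no filter (HLA-E -0.00401) and with a library left out, with ranges of -0.14 to 0.084 for HLA-C, -0.13 to 0.15 for HLA-E, -0.34 to 0.74 for HLA-F, -0.35 to 0.13 for B2M, -0.031 to 0.24 for TAP1 and -0.16 to 0.22 for TAP2. The study's rule gave 8 or 9 members, HLA-F included, and the subunit ratios moved by less than their spread with covering reads. HLA-F had 2 to 23 reads and TAPBP 10 to 40 reads a library.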
